A study of Mus musculus with 24 samples.

Results

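The immunoglobulin constant regions and the enhancers beside them were examined by ATAC-seq, which counts transposase-cut DNA fragments over open chromatin, in germinal center (GC) B cells of mice with heterozygous loss of Crebbp, Kmt2d or both. The regions were the consensus peaks that overlapped a constant gene (Ighm, Ighd, Ighg3, Ighg1, Ighg2b, Ighg2c, Ighe, Igha, Igkc or Iglc1) extended by 50 kb on each side, with each peak counted once. This rule took 59 of 65483 peaks, of which 37 lay at the heavy chain locus (Igh, chromosome 12), 13 at the kappa locus (Igk, chromosome 6) and 9 at the lambda locus (Igl, chromosome 16) of mm10. The rule used positions only and no measured value.

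All mice carried 1 Cre allele, Cg1-Cre, which is inserted at the Ighg1 locus and recombines floxed alleles in GC B cells, so that Ighg1 itself was modified in every genotype. The 4 genotypes were WT (Cg1-Cre alone, 4 mice), C (with Crebbp fl/+, 4 mice), K (with Kmt2d fl/+, 4 mice) and CK (with both floxed alleles, 5 mice). Mice of 8 weeks on a C57BL/6J background were immunized with sheep red blood cells (SRBC), and splenic GC B cells were sorted after 10 days, with 1 library per mouse. The mice are given as female, but signal at the proximal Y chromosome was present in 9 of the 17 libraries (2 WT, 2 C, 3 K and 2 CK). The deleted exons are not given in the sources used here, so the genotypes were not checked from the peaks.

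A constant gene sets the class of an antibody. On the heavy chain, Ighm and Ighd are used first, and class switch recombination then joins the AGCT-rich switch region before Ighm to one before a downstream gene and discards the DNA between them. Transcription and switching of the locus depend on the intronic enhancer between the J segments and Ighm and on the 3' regulatory region downstream of Igha, and the kappa locus has an intronic enhancer between its J segments and Igkc and further enhancers downstream. Since recombination removes DNA, fewer copies of a region and lower accessibility per copy cannot be told apart in these counts.

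The sequences of 6 peaks are shown because they are the most accessible peaks of the Ighm, Igha 3' flank and Igkc stretches, or the peaks with the lowest adjusted p-values in CK against WT. In the AGCT-rich peak, printed whole, capitals mark the 10 AGCT motifs.

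AGCT-rich peak upstream of Ighm, chr12:113425466-113425726, plus strand: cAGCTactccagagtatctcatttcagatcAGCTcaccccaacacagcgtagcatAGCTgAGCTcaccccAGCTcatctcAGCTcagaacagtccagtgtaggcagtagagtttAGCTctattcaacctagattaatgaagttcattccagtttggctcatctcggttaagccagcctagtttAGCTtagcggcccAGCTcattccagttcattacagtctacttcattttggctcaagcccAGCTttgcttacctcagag

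In the next pair, 300 bp around the peak centre, capitals mark matches on either strand to the octamer ATTTGCAT, bound by POU factors with Pou2af1, and to the E-box motifs CAGGTG and CAGCTG, bound by E proteins such as E2A. The window at 9.99 kb held 1 octamer, 1 CAGGTG and 2 CAGCTG, and the window at 26.4 kb held 1 octamer and 1 CAGGTG.

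Igha 3' flank at 9.99 kb, chr12:113244685-113244984, plus strand: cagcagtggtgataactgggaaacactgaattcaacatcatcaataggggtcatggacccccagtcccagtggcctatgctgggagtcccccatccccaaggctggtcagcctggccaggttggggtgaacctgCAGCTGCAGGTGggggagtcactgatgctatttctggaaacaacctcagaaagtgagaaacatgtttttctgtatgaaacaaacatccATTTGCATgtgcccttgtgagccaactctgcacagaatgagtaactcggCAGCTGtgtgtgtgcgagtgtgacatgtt

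Igha 3' flank at 26.4 kb, chr12:113228293-113228592, plus strand: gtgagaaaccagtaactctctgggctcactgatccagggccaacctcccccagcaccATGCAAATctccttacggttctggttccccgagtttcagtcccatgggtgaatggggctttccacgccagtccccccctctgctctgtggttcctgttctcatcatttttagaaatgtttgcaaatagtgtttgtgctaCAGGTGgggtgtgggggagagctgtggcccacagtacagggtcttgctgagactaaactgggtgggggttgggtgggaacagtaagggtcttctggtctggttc

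In the Igkc window, capitals mark the 86 bases that lie in the Igkc gene, and the lower-case bases before them are the end of the J to Igkc intron.

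J to Igkc intron and Igkc, chr6:70726221-70726520, plus strand: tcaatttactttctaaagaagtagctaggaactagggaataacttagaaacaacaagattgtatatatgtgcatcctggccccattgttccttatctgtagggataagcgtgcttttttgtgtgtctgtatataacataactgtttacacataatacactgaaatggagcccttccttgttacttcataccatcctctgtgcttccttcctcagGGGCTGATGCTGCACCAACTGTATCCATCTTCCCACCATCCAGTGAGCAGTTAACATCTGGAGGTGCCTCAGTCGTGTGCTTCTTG

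The centres of the remaining pair, and of the Igkc peak, held no match to the octamer, CAGGTG or CAGCTG. Nor did they match the kappa B motif GGACTTTCC or the PU.1-type motif AGAGGAA. This says only that these letters are not in the 300 bp shown.

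J to Ighm intron, chr12:113427666-113427965, plus strand: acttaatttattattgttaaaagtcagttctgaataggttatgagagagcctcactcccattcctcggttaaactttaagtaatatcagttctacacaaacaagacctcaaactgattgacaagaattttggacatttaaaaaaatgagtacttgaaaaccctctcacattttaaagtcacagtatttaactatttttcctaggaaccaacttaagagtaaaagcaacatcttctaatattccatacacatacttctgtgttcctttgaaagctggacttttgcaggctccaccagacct

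Igha 3' flank at 33.2 kb, chr12:113221477-113221776, plus strand: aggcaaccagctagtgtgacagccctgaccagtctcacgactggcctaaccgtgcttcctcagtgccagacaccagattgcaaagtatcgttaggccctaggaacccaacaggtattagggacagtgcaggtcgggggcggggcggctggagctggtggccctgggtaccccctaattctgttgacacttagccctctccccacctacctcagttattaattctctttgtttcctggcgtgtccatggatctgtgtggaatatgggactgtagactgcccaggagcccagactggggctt

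Over all 59 peaks, the central 300 bp held the octamer in 3 (5.1%, against 4.17% of all peaks), CAGGTG in 23 (39.0% against 24.15%), CAGCTG in 11 (18.6% against 17.22%), AGAGGAA in 12 (20.3% against 14.43%), AGCT in 50 (84.7% against 79.3%) and GGACTTTCC in 0 (0.38% of all peaks). AGCT motifs were dense in 7 of the 59 peaks (11.9%), above the 95th percentile of all peaks of 10.65 per kb. These were the 261-bp peak before Ighm with 38.3 per kb, 4 peaks upstream of Ighg1 with 11.8 to 28.7 per kb, 1 upstream of Ighg3 with 18.6 per kb and 1 upstream of Ighe with 14 per kb.

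Libraries held 17483706 to 21857738 fragments in peaks, and the 59 peaks took 0.089% to 0.129% of them. Values are given as CPM, the fragments at a peak scaled to a common library size after TMM normalization, which assumes that most peaks do not change. The labelled cell type was checked against peaks within 1 kb of the start sites of marker genes. Of the GC B cell genes, Bcl6 had 26.8 to 36.2 CPM, Fas 27.1 to 38, Mef2b 92.7 to 105.9, S1pr2 39.4 to 48.3 and Gcsam 40.6 to 56.0 across the 17 libraries. The 4 B lineage genes summed to 438.7 to 504.9 CPM, while Cd3e, Cd4, Cd8a, Trac, Lyz2 and Itgam had no peak at their start sites. Csf1r, a myeloid gene, had a low peak with 0.923 to 2.27 CPM. Genes listed for plasma cells and memory B cells also had peaks at their start sites, so the check does not separate these cells from GC B cells. Between genotypes, Fcer2a, a gene of follicular B cells, averaged 28.5 CPM for WT, 23.2 for C, 16.3 for K and 17.3 for CK mice, and its part in the results was not tested. Of the same list, Cr2 had 35.9 CPM in WT and 36.8 in CK, and Klf2 had 69.2 and 70.1.

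WT replicate 4 stood apart in these regions. It had the highest CPM of the 17 libraries at 37 of the 59 peaks (62.7%), against 11.8% of all peaks, and the 59 peaks took 0.129% of its fragments, against 0.097% to 0.109% in the other WT mice. Its summed level of B lineage genes was also the highest, at 504.9 CPM. So were its sums over the GC B cell genes and the follicular B cell genes, but not those over the plasma cell and memory B cell genes. The calls in CK against WT are therefore given with and without it.

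Accessibility of the immunoglobulin regions was lower in CK than in WT at 51 of the 59 peaks, and 9 peaks (15.3%) fell and 0 rose at an adjusted p under 0.01 (edgeR quasi-likelihood test, Benjamini-Hochberg adjusted over the whole peak set). Over all 65483 peaks, 6.84% were called in either direction and 3.30% fell. The median log2 fold change was -0.287 over the 59 peaks and 0.0029 over all peaks. The 9 peaks were 4 at and downstream of Igha, 1 downstream of Ighg1, 2 upstream of Ighm, 1 at Igkc and 1 downstream of Iglc1. At an adjusted p under 0.05, 21 peaks fell and 0 rose, beside 7.54% of all peaks that fell.

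These calls rested on WT replicate 4. Without it 0 of the 59 peaks passed in CK against WT with edgeR, while the share of all peaks called fell from 6.84% to 3.23%. At an adjusted p under 0.05 were 5 peaks (8.47%, against 8.55% of all peaks), and 19 were lower and 3 higher at an unadjusted p under 0.05 (37.3% against 23%). The lowest adjusted p was 0.0103, and the median log2 fold change was -0.176, with 47 peaks lower. Each of the 9 peaks stayed lower in CK, with log2 fold changes from -0.18 to -0.54. DESeq2, with all mice, called 12 of the 59, beside 5274 of all 65478 peaks it tested.

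**Figure D1:**
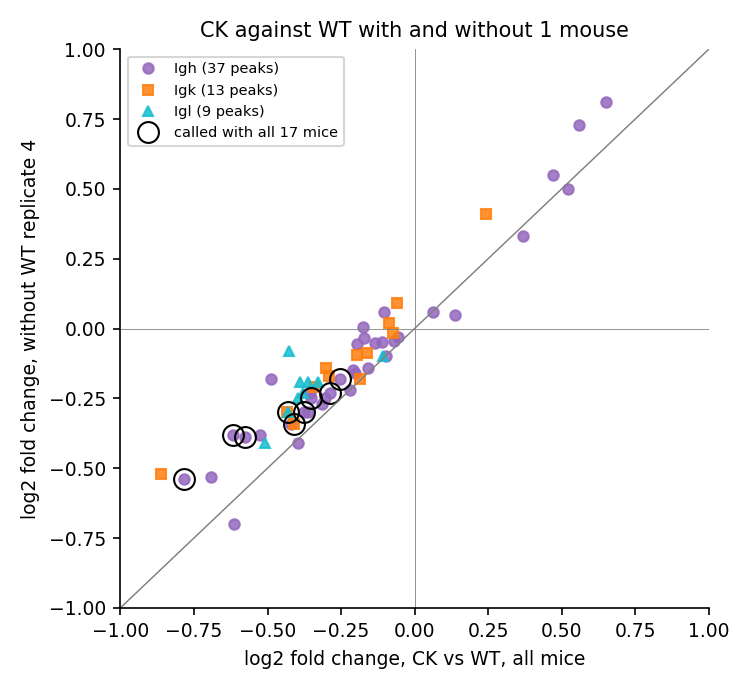
Log2 fold change in CK against WT for each of the 59 peaks with all mice (horizontal axis) and without WT replicate 4 (vertical axis), coloured by locus, with the 9 peaks called with all 17 mice circled and the diagonal marking equal values. The circled peaks lie left of 0 and above the diagonal, with -0.78 becoming -0.54 at the peak furthest from 0.

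No immunoglobulin peak passed in C or in K. In C against WT, 0 of the 59 peaks were called (0.160% of all peaks), the lowest adjusted p was 0.0946, the median log2 fold change was -0.148, and 4 were higher and 11 lower at an unadjusted p under 0.05 (25.4%, against 8.90% of all peaks). In K against WT, 0 were called (1.48% of all peaks), the lowest adjusted p was 0.0511, the median was -0.177, and 2 were higher and 13 lower at an unadjusted p under 0.05 (25.4%, against 20.6% of all peaks). These comparisons share the WT mice with that of CK. DESeq2 also called 0 in both, beside 180 of all 65478 peaks it tested in C and 1739 in K.

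Between the mutant genotypes, 0 of the 59 peaks passed. This held for CK against C (1.68% of all peaks called, median log2 fold change -0.157), CK against K (0.00916%, -0.077) and K against C (0.788%, -0.028). At an unadjusted p under 0.05, 8 were lower and 0 higher in CK against C (13.6%, against 21.2% of all peaks). In CK against K 8 were lower and 0 higher (13.6% against 7.35%), and in K against C 2 were lower and 1 higher (5.08% against 17.9%). DESeq2 called 1 in CK against C (2104 of all 65478 peaks it tested). It called 0 in CK against K (38 of all peaks) and in K against C (1164). The departure of CK from the C and K changes added together had an adjusted p of 1.0 at its lowest (0 called, 4 of 59 at an unadjusted p under 0.05, edgeR). For that departure the share of all peaks was not counted.

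Summed over each locus, the Igh peaks had 639.5 ± 59.4 CPM in WT mice, while C mice had 587.3 ± 16.6, K mice 590.3 ± 17.6 and CK mice 553.3 ± 29.0 (SD, n = 4, 4, 4 and 5). The Igk peaks had 308.7 ± 47.4, 282.9 ± 13.8, 281.9 ± 13.9 and 255.3 ± 19.5 CPM, and the Igl peaks 155.9 ± 32.5, 133.7 ± 8.59, 132.1 ± 6.90 and 121.5 ± 13.5 CPM in the same order. The log2 ratio of CK to WT was -0.209 for Igh, -0.274 for Igk and -0.360 for Igl, and -0.143, -0.162 and -0.207 without WT replicate 4. CK and WT mice overlapped at each locus. Within the mice with Y signal the ratios were -0.092, -0.117 and -0.174, and within those without it -0.310, -0.414 and -0.528, the latter holding WT replicate 4.

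**Figure D2:**
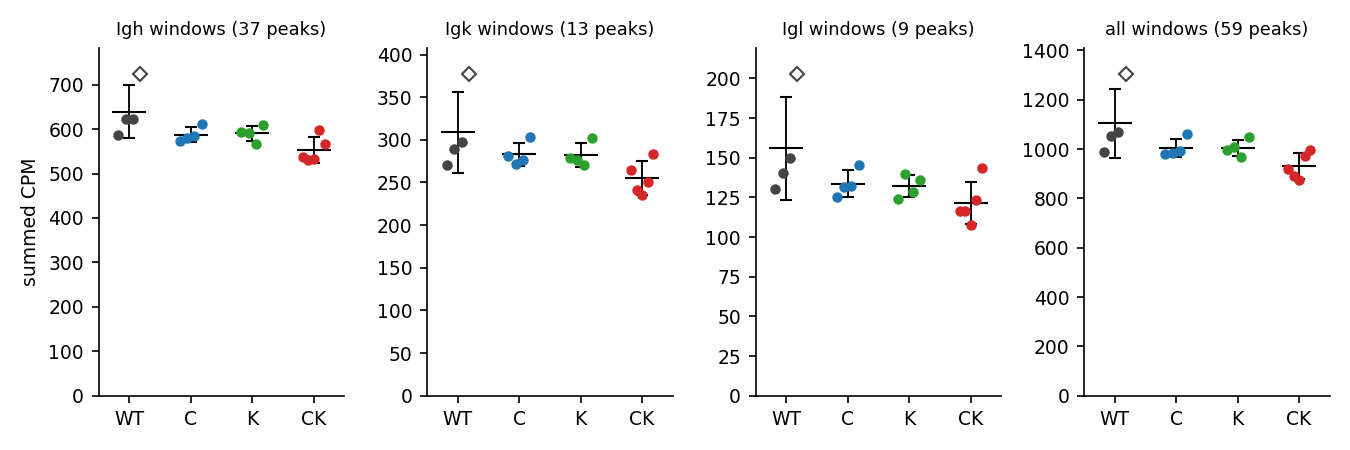
Summed CPM (vertical axis, from 0) of the Igh, Igk, Igl and all immunoglobulin peaks in each mouse by genotype, with mean and SD as bars and WT replicate 4 as an open diamond. WT replicate 4 is the highest mouse in every panel, and the lowest values are those of CK mice.

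Along Igh, the direction differed by position. The intronic enhancer interval, the AGCT-rich peak, the Igha end and the summed 3' flank had values below WT in CK. The peaks over the exons of Ighg2b and Ighg2c had values above it. Within the flank, the peak 37.04 kb downstream of Igha was not lower, with a log2 fold change of 0.064 ± 0.071 (SE).

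**Figure D3:**
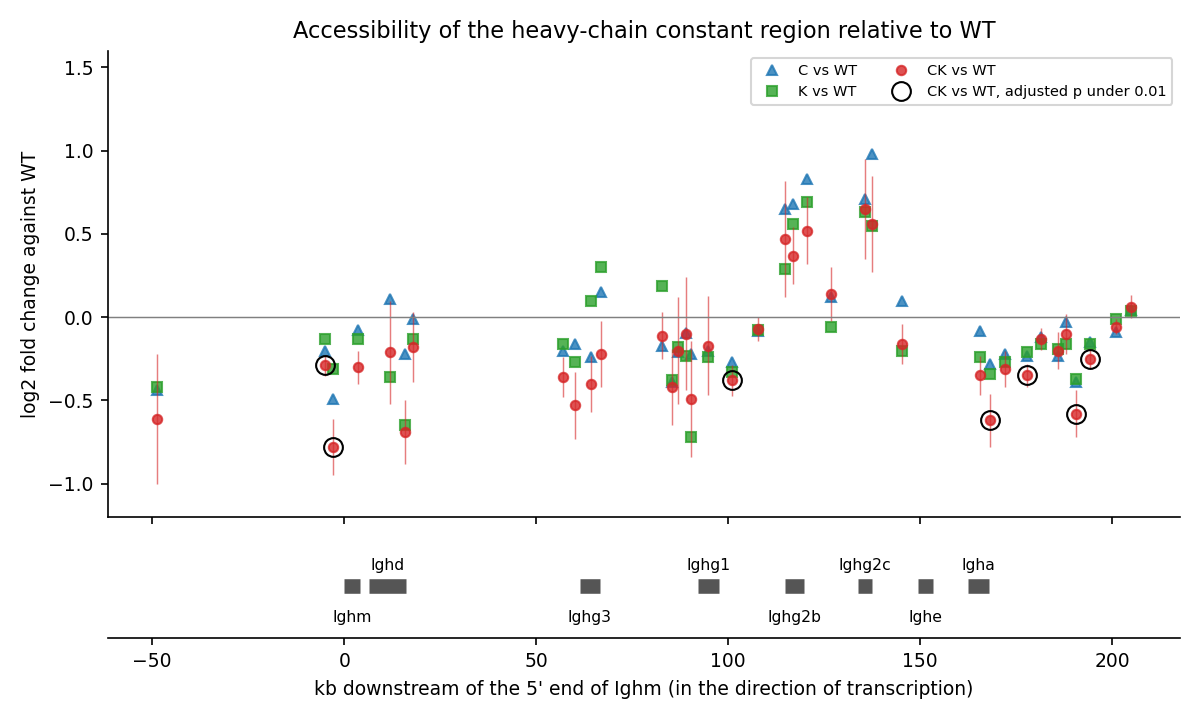
Log2 fold change against WT of the 37 Igh peaks in C, K and CK (bars, standard error for CK only) by distance in kb from the 5' end of Ighm, above a scale map of the constant genes. The 7 circled peaks passed in CK against WT, and the 5 exon peaks of Ighg2b and Ighg2c are above 0 in each mutant genotype. Of these 5, those of Ighg2c and the shortest of Ighg2b held few fragments.

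The Ighm stretch held the AGCT-rich peak, a peak over the Ighm exons and a peak in the J to Ighm interval. The AGCT-rich peak (chr12:113425466-113425726, intergenic, centred 2.87 kb upstream of Ighm) lies where the switch region of Ighm is known to be. It had 3.46, 5.48, 4.17 and 7.64 CPM in the WT mice. C mice had 3.26, 3.74, 3.69 and 3.98, K mice 4.35, 4.53, 3.98 and 3.83, and CK mice 2.17, 3.66, 3.08, 3.34 and 2.77. Only 1 of 5 CK mice was above the lowest WT mouse, and WT replicate 4 was the highest of all. The log2 fold change in CK was -0.78 ± 0.17 (SE, adjusted p = 0.00344 with edgeR) and -0.54 ± 0.16 without WT replicate 4 (adjusted p = 0.0324). It was -0.49 in C (adjusted p = 0.362) and -0.31 in K (adjusted p = 0.336). Counts at this peak were 44 to 138 fragments per mouse, the thinnest of the 9 called peaks.

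The peak in the J to Ighm interval (chr12:113426813-113428819, overlapping Ighj4) covers the stretch in which the intronic heavy chain enhancer is known to lie. WT mice had 47.8, 53.7, 53.1 and 59.7 CPM, C mice 46.2, 43.7, 45.9 and 50.1, K mice 45.9, 54.8, 48.5 and 46.3, and CK mice 45.0, 43.3, 40.8, 41.5 and 48.9. Of the CK mice, 4 lay below every WT mouse and 1 did not. CK differed from WT by a log2 fold change of -0.29 ± 0.065 (adjusted p = 0.00361, edgeR) and -0.23 ± 0.066 without WT replicate 4 (adjusted p = 0.0277). The Ighm exon peak (chr12:113417140-113421187) did not pass, with 52.4 ± 5.24 CPM in WT and 42.4 ± 7.98 in CK (log2 fold change -0.30 ± 0.099, adjusted p = 0.0378, edgeR).

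Ighd, expressed with Ighm by splicing in cells that have not switched, had low counts. Its exon peak (chr12:113406304-113407670) ranged from 2.58 to 4.93 CPM for WT, 2.71 to 3.82 for C, 1.88 to 2.72 for K and 1.48 to 2.98 for CK. The log2 fold change was -0.65 ± 0.20 in K (adjusted p = 0.0609, edgeR) and -0.69 ± 0.19 in CK (adjusted p = 0.0161, edgeR), and neither passed.

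Downstream of Igha, 9 peaks covered the flank in which the 3' regulatory region is known to lie. The most accessible of all 59 peaks was among them (chr12:113220010-113223244, 33.2 kb downstream), with 134.6 to 150.8 CPM in WT and 130.0 to 141.8 in CK, and a log2 fold change of -0.057 ± 0.045 (adjusted p = 0.434, edgeR). At this far peak the mice of each mutant genotype overlapped the WT mice. In C the log2 fold change was -0.089 ± 0.047 (adjusted p = 0.608, edgeR).

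The 3 peaks at 9.99, 22.65 and 26.39 kb from Igha fell in CK. At 9.99 kb (chr12:113244234-113245436) the WT mice had 44.9, 45.6, 48.4 and 59.6 CPM, C mice 41.1, 41.6, 41.4 and 45.1, K mice 41.6, 42.2, 42.1 and 45.8, and CK mice 43.0, 36.4, 34.4, 39.5 and 40.9. Every CK mouse was below every WT mouse, a separation that leaving out WT replicate 4, the highest WT mouse, could not change. The log2 fold change was -0.35 ± 0.071 (adjusted p = 0.00147, edgeR) and -0.25 ± 0.062 without that mouse (adjusted p = 0.0113).

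At 26.4 kb (chr12:113227743-113229143) the WT mice had 62.2, 65.1, 64.7 and 77 CPM and the CK mice 57.4, 50.5, 56.2, 58.9 and 59.3, with C at 58.7 to 64.5 and K at 55.6 to 62.9. The CK mice again all lay below the WT mice, with a log2 fold change of -0.25 ± 0.059 (adjusted p = 0.00472, edgeR) and of -0.18 ± 0.054 without WT replicate 4 (adjusted p = 0.0388). At 22.7 kb (chr12:113231744-113232608) the log2 fold change was -0.58 ± 0.14 (adjusted p = 0.00681, edgeR) and -0.39 ± 0.13 without that mouse (adjusted p = 0.0613). In this peak 40.1% of 50-base stretches occur elsewhere in the genome, so that its counts depend on how reads from copies were placed.

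Summed over the flank, the CK mice (321.5 ± 8.99 CPM) all lay below the WT mice (360.2 ± 30.0 CPM), with a log2 ratio of -0.164, or -0.104 without WT replicate 4. The C mice (327.8 ± 8.21 CPM) also all lay below the WT mice, with a log2 ratio of -0.136, or -0.076 without that mouse, while K mice overlapped them. The peak across the 3' exons of Igha (chr12:113253356-113255551), the IgA constant gene, had 14.1, 14.5, 18.3 and 26.9 CPM in WT and 11.6, 9.42, 11.8, 12.6 and 14.8 in CK, with C at 13.1 to 18.3 and K at 11.7 to 17.9. WT replicate 4 was far above the rest, and the log2 fold change of -0.62 ± 0.16 (adjusted p = 0.00972, edgeR) became -0.38 ± 0.14 without it (adjusted p = 0.0911).

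**Figure D4:**
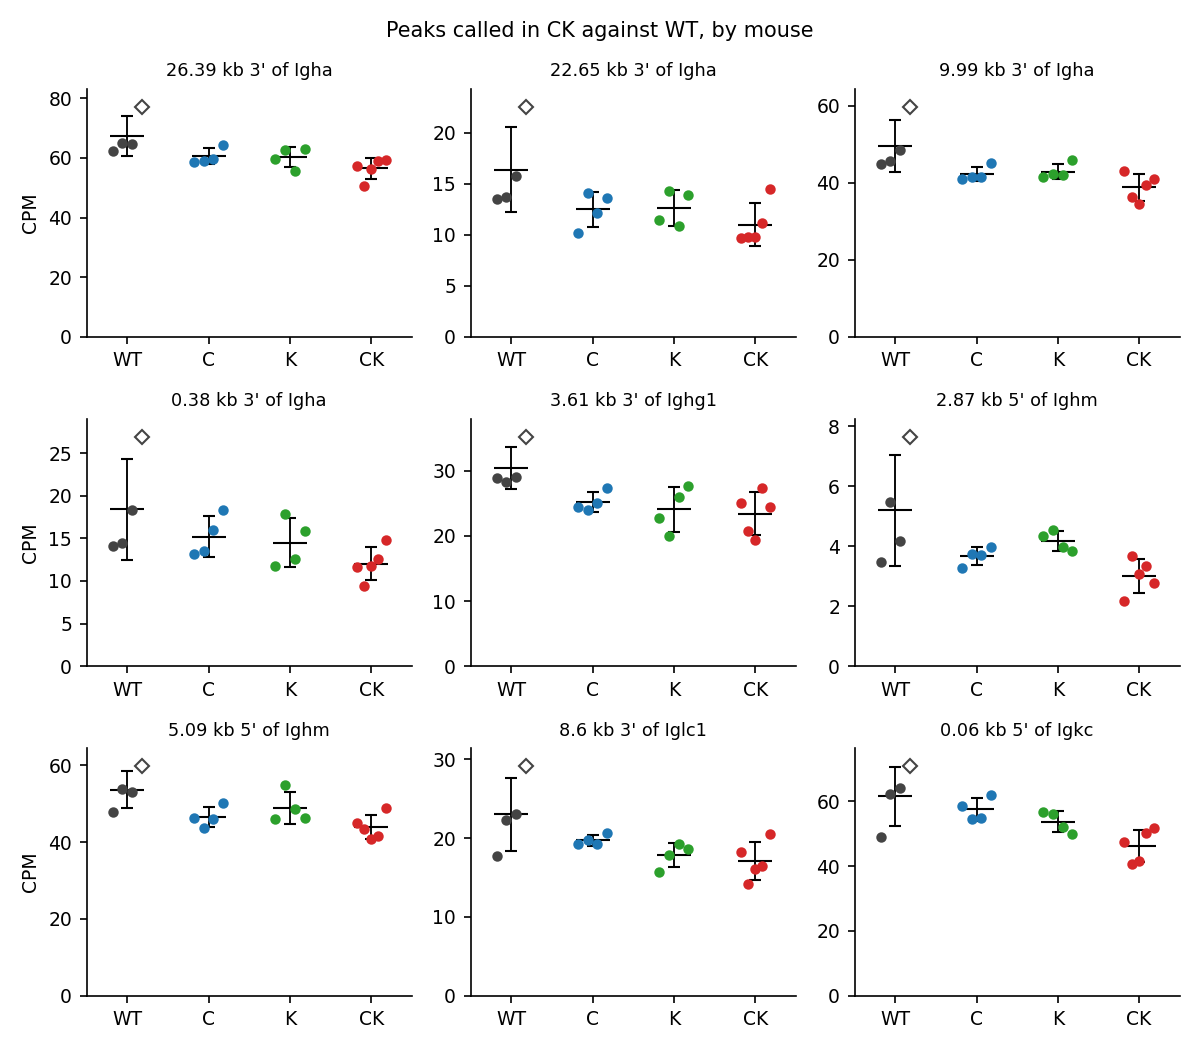
CPM (vertical axis, from 0) in each mouse by genotype at the 9 peaks called in CK against WT, with mean and SD as bars and WT replicate 4 as an open diamond. The diamond is the highest point in every panel, and CK mice lie wholly below WT at the peaks 26.4 and 9.99 kb downstream of Igha and 3.61 kb downstream of Ighg1.

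Between Ighg1 and Ighg2b, an intergenic peak centred 3.61 kb downstream of Ighg1 (chr12:113320854-113322402) had 28.9, 28.3, 29.0 and 35.2 CPM in WT. C mice had 24.4, 23.9, 25.1 and 27.4, K mice 22.7, 20, 26 and 27.7, and CK mice 25.1, 20.7, 19.4, 27.3 and 24.4. Every mutant mouse of each genotype was below every WT mouse, a separation that leaving out WT replicate 4, the highest, could not change. The log2 fold change was -0.38 ± 0.095 in CK (adjusted p = 0.00864, edgeR), or -0.30 ± 0.098 without that mouse (adjusted p = 0.0576), -0.33 in K (adjusted p = 0.0537) and -0.27 in C (adjusted p = 0.382).

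Complete separation from WT of this kind was found for 2 of the 59 peaks in C (3.39%, against 2.77% of all peaks), 1 in K (1.69% against 5.86%) and 5 in CK (8.47% against 6.39%). The share in CK was thus near that of all peaks.

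The exon peaks of the IgG genes differed in direction. Ighg2b had 3 exon peaks that summed to 8.09, 10.7, 9.89 and 8.97 CPM in WT. The sums were 13.7, 11.3, 16.9 and 21 for C mice, 13.5, 9.80, 17.9 and 15.5 for K mice, and 9.85, 10.2, 12.3, 16.6 and 14.7 for CK mice. All C mice were above all WT mice, while 1 K mouse and 2 CK mice lay within the WT range. The peak at its 3' end (chr12:113301078-113303384) had a log2 fold change of 0.83 ± 0.21 in C (unadjusted p = 0.00056, adjusted p = 0.0946 with edgeR), 0.69 ± 0.21 in K (adjusted p = 0.0565) and 0.52 ± 0.20 in CK (adjusted p = 0.0859).

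The next peak (chr12:113304379-113307094) had 0.68 ± 0.18 in C (unadjusted p = 0.000899, adjusted p = 0.120 with edgeR), 0.56 ± 0.18 in K (adjusted p = 0.0692) and 0.37 ± 0.17 in CK (adjusted p = 0.165). None passed the threshold. Complete separation of C above WT was seen for these 2 of the 59 peaks (3.39%), and for 2.89% of all peaks. The shortest Ighg2b exon peak (chr12:113307702-113307947) held only 6 to 29 fragments per mouse.

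Ighg2c, the IgG2c gene of this strain, had 2 exon peaks that summed to 1.12, 1.78, 1.55 and 2.27 CPM in WT. C mice had 2.17, 2.80, 4.20 and 3.24, K mice 1.96, 2.61, 2.88 and 2.58, and CK mice 2.12, 1.62, 4.26, 2.39 and 2.13. Groups overlapped, and CK replicate 3 was the highest mouse. The log2 ratio of CK to WT was 0.58 with all mice and 0.30 without CK replicate 3. Each of these 2 peaks held between 9 and 63 fragments per mouse.

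Ighg1, which bears the Cre allele, varied most among CK mice. Its exon peak (chr12:113327103-113328773) had 6.54, 10.8, 13.2 and 14.5 CPM in WT. Values were 9.11, 8.66, 10.7 and 10.8 for C mice, 7.69, 9.0, 10.5 and 11 for K mice, and 10.3, 5.28, 2.70, 15.8 and 16.2 for CK mice. The lowest and the highest of the 17 mice were both CK. The means did not separate (log2 fold change in CK -0.17 ± 0.30, adjusted p = 0.756, edgeR).

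Of the summed signal over the exon peaks of the IgG genes, Ighg1 took 22.4% to 34.1% for WT, 20.6% to 23.9% for C, 18.2% to 25.9% for K and 8.72% to 33.6% for CK. Ighg2b took 20.3% to 28.2% for WT, 27.6% to 40.0% for C, 28.1% to 34.2% for K and 29.8% to 39.6% for CK. Every CK mouse thus had a larger Ighg2b share than every WT mouse, which is a description with no test. In CK replicate 3 the Ighg1 share was 8.72% and the Ighg2c share 13.8%, against 3.17% to 5.33% for Ighg2c in WT.

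Ighg3 exon peaks summed to 17.3 ± 4.76 CPM for WT, 16 ± 2.34 for C, 19.3 ± 4.32 for K and 13.7 ± 3.27 for CK, with all groups overlapping. The 4 IgG genes share similar sequence, but at most 8.9% of 50-base stretches in these exon peaks occur elsewhere in the genome. No peak overlapped Ighe itself, the IgE gene, and the peak 4.2 kb upstream of it had 10.8 ± 0.551 CPM in WT and 9.64 ± 1.72 in CK.

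**Figure D5:**
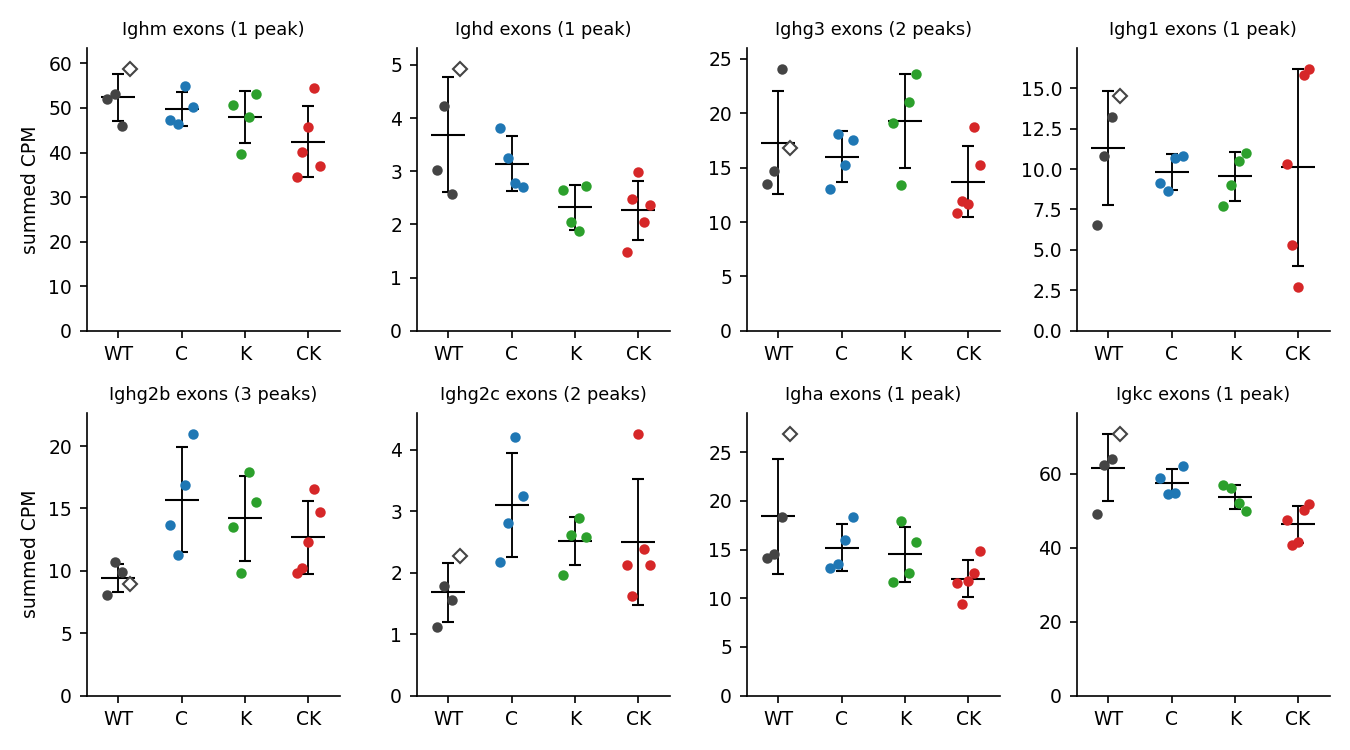
Summed CPM (vertical axis, from 0) of the peaks over the exons of each constant gene in each mouse by genotype, with mean and SD as bars and WT replicate 4 as an open diamond. Ighg2b and Ighg2c lie higher in the mutant genotypes, Ighm, Ighd, Igha and Igkc have lower means in CK, and Ighg1 spreads from 2.70 to 16.2 CPM among CK mice.

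The 7 AGCT-rich peaks were all lower in CK than in WT (median log2 fold change -0.36, from -0.78 to -0.10), as they were in K (-0.23), and 6 of 7 were in C (-0.21). Only the peak before Ighm passed the test, and only with all mice. Without WT replicate 4, the AGCT-rich peak 3.14 kb upstream of Ighg1 turned to 0.059 ± 0.37 (SE) in CK against WT. The remaining AGCT-rich peaks stayed lower, from -0.54 to -0.14. A lower value in CK was not particular to dense AGCT motifs, since 44 of the 52 peaks without them also had one with all mice. The other 52 peaks had medians of -0.27 in CK, -0.16 in K and -0.14 in C. The 4 AGCT-rich peaks upstream of Ighg1 were thinly covered, and with all mice their log2 fold changes in CK ran from -0.49 ± 0.35 to -0.10 ± 0.34.

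At the kappa locus, the most accessible peak (chr6:70724038-70728704) spans the J to Igkc intron, where the intronic kappa enhancer is known to lie, and Igkc itself. It had the lowest adjusted p of the 59 peaks. WT mice had 49.0, 62.4, 64 and 70.8 CPM, C mice 58.7, 54.6, 54.7 and 62.1, K mice 56.8, 56.0, 52.0 and 49.9, and CK mice 47.5, 40.7, 41.6, 50.1 and 51.8. WT replicate 1 lay among the CK mice, and the other WT mice above them. The log2 fold change was -0.41 ± 0.080 (adjusted p = 0.00116, edgeR), or -0.34 ± 0.081 without WT replicate 4 (adjusted p = 0.0103).

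Against C it was -0.31 ± 0.080 (adjusted p = 0.0203, edgeR) and against K -0.21 ± 0.081 (adjusted p = 0.521), neither of which passed. It was -0.098 in C (adjusted p = 0.792) and -0.20 in K (adjusted p = 0.174) against WT.

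The 7 peaks downstream of Igkc, where further kappa enhancers are known, summed to 197.0 ± 34.6 CPM in WT and 164.1 ± 11.9 in CK, and none passed. The nearest to the threshold (chr6:70740396-70741049, 13.8 kb downstream) had 11, 13.3, 16 and 28.1 CPM in WT and 9.26, 5.65, 7.62, 9.41 and 15.2 in CK, with a log2 fold change of -0.86 ± 0.22 (adjusted p = 0.0104, edgeR). WT replicate 4 was the highest mouse by far, and the log2 ratio of the means without it was -0.509. The peak at 8.57 kb (chr6:70734884-70736184) had -0.29 ± 0.092 (adjusted p = 0.0325, edgeR). Upstream of the J segments the most accessible peak (chr6:70709177-70710345) had -0.074 ± 0.082 (adjusted p = 0.604, edgeR).

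At the lambda locus no peak overlapped Iglc1 itself, and all 9 peaks had lower values in CK, from -0.51 to -0.11 on the log2 scale. The called peak (chr16:19052380-19053652, in an intron of 2010309G21Rik, 8.6 kb downstream of Iglc1) had 17.7, 22.3, 23.1 and 29.1 CPM in WT. C mice had 19.2, 19.8, 19.2 and 20.7, K mice 15.7, 17.8, 19.2 and 18.6, and CK mice 18.2, 14.2, 16.1, 16.5 and 20.5. Again WT replicate 1 lay among the CK mice. Between CK and WT the log2 fold change was -0.43 ± 0.11 (adjusted p = 0.00698, edgeR), or -0.30 ± 0.099 without WT replicate 4 (adjusted p = 0.0582). The most accessible lambda peak (chr16:19063107-19066108), over Iglj1 and Iglc3, had -0.39 ± 0.12 (adjusted p = 0.0345, edgeR).

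Other genes of the pathway were counted in lists, with peaks in the gene or within 5 kb of it. Of 27 peaks at genes for antigen receptor partners and secretion, 1 rose and 1 fell in CK against WT (7.41%, near the 6.84% of all peaks). The peak that rose was at Mzb1, a chaperone of immunoglobulin assembly (44.6 ± 1.78 CPM in WT and 54.1 ± 1.80 in CK). The one that fell was at Cd79a, the signalling partner of surface immunoglobulin (124.0 ± 5.26 and 110.2 ± 4.42 CPM). C and K averaged 49.6 and 51.2 CPM at the Mzb1 peak, and 114.2 and 116.6 at the Cd79a peak. Without WT replicate 4 the peak at Mzb1 still passed (adjusted p = 0.00155, edgeR) and that at Cd79a did not (adjusted p = 0.025). In that fit 3.23% of all peaks were called. C and K had 0 calls in this list.

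Of 257 peaks at genes of factors that bind the enhancers, 2 rose and 8 fell in CK (3.89%, below the 6.84% of all peaks), and 0 passed in C or K. The 8 included peaks at Tcf12, an E protein (22.3 ± 1.10 CPM in WT and 17.6 ± 0.938 in CK), Ets1 (10.7 ± 0.439 and 7.78 ± 0.647), Pax5 (51.6 ± 2.0 and 44.1 ± 1.72) and Pou2f1, which binds the octamer (30.4 ± 1.79 and 25.2 ± 2.86). In that order, these peaks averaged 18.7, 8.66, 48.3 and 28.6 CPM in K and 19.6, 10.4, 50.8 and 28.0 in C. Ebf1 had 2 peaks that fell and 1 that rose, and a second, low Pax5 peak rose (2.24 ± 0.894 and 3.93 ± 0.54 CPM). Without WT replicate 4, 0 rose and 4 fell of the 257, while 3.23% of all peaks were called. Those 4 were the named peaks of Tcf12, Ets1 and Pax5 and 1 peak at Ebf1. The median log2 fold change over the list was -0.063.

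Of 88 peaks at genes for germ-line transcription and switching inputs, 2 rose and 6 fell in CK (9.09%, against 6.84% of all peaks), 1 rose and 3 fell in K (4.55% against 1.48%), and 0 passed in C. Peaks at Smad3 and Tgfbr2, of the TGF-beta pathway that directs switching to Igha, were among those that fell in CK, with 24.8 ± 2.58 CPM in WT and 17.8 ± 2.22 in CK at one Smad3 peak and 39.1 ± 4.36 and 31.2 ± 1.13 at one Tgfbr2 peak. Il21r, a cytokine receptor, had 19.5 ± 1.55 CPM in WT and 15.1 ± 1.53 in CK at its called peak. Without WT replicate 4, 2 rose and 2 fell of the 88, while 3.23% of all peaks were called. The 2 that fell were both at Smad3.

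Of 114 peaks at the other immunoglobulin genes, mostly V segments, 2 rose and 2 fell in CK (3.51%, against 6.84% of all peaks), 1 rose in K (0.877% against 1.48%) and 0 passed in C, with a median log2 fold change in CK of 0.025. Those that rose were at Igkv9-129 (4.24 ± 0.563 CPM in WT and 7.49 ± 0.463 in CK) and Igkv1-122 (1.43 ± 0.422 and 2.86 ± 0.452). Those that fell were at Iglv3 (15.6 ± 3.27 and 11.3 ± 1.12) and Iglv2 (6.31 ± 1.39 and 4.13 ± 0.924). In that order, these peaks averaged 6.48, 2.51, 12.5 and 5.05 CPM in K and 4.75, 1.59, 13.8 and 4.84 in C. Without WT replicate 4, 2 rose and 0 fell of the 114 (adjusted p = 0.0532 at Iglv3 and 0.0659 at Iglv2, edgeR), while 3.23% of all peaks were called.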

How the data were processed

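Omni-ATAC libraries of sorted GC B cells were sequenced as paired ends. The authors ran the nf-core pipeline for ATAC-seq with alignment to mm10 and deposited, per consensus peak, raw fragment counts made by featureCounts 2.0.1 with no scaling. A fragment was counted when at least 0.2 of it overlapped a peak, and could count in several peaks. The 7 sorted CB and CC samples were not analysed here. The members and lists were chosen with earlier results of these data known.

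Gene positions came from GENCODE M21 and sequences from RefSeq GRCm38. A peak that overlapped a constant gene was assigned to it, and others by their centre, from which distances were measured. All 65483 peaks in the 17 libraries (0 with fewer than 10 counts) were fitted together with edgeR 4.0.16 (R 4.3.3, TMM factors, 1 coefficient per genotype, no covariates), and 6 comparisons were tested with its quasi-likelihood F test, Benjamini-Hochberg adjusted across the whole table, with calls at an adjusted p under 0.01. Named were every called peak and, in each stretch, the most accessible peak and that with the lowest p in CK against WT. Exon peaks of the constant genes, list peaks and peaks next to the threshold were named after their values were seen. Sums over peaks were given without a test. DESeq2 1.42.0, other normalizations, windows, covariates and leaving out each mouse were alternatives. The test was checked on simulated data for CK against WT. It called 74 of 200 peaks changed by 1.5-fold and 151 of 200 changed by 2-fold, with 2 and 1 false calls. Changes of this size can thus go uncalled. Some marker genes are not reported here.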

Additional observations from a re-analysis of the deposited data

Results flagged for a closer look

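In groups of 4 or 5 mice, single mice were compared with the rest of their group for each named peak and summed stretch (176 comparisons). A gap beyond Dixon's limit was found in 12, and chance gives about 1 in 20.

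WT replicate 4 had 35.2 CPM at the peak 3.61 kb downstream of Ighg1, against 28.3 to 29.0 in the other WT mice. WT replicate 1 was low at the peak upstream of Ighe, the only peak of that stretch, with 9.95 CPM against 11 to 11.1. Around Igha, C replicate 3 had 126.8 CPM at the peak 33.2 kb downstream (others 136.1 to 137.4), and at the peak 9.99 kb downstream C replicate 4 had 45.1 CPM (others 41.1 to 41.6) and K replicate 4 had 45.8 CPM (others 41.6 to 42.2).

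K replicate 4 was also high at the peak 8.57 kb downstream of Igkc, with 49.4 CPM against 38.3 to 39.4, and over the summed Igkc 3' flank, with 202.2 CPM against 171.1 to 173.8. CK replicate 3 had 9.42 CPM summed over the Ighg2c stretch, against 5.24 to 6.23 in the other CK mice. CK replicate 5 had 65.6 CPM summed over the peaks downstream of Iglc1, against 50.4 to 54.5. C replicate 1 had 30.9 CPM over the Ighg3 stretch, against 34.9 to 35.7, and C replicate 4 had 1059.5 CPM over all 59 peaks, against 980.4 to 993.6.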

How the results depend on the processing

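Of the 9 calls in CK against WT, all kept their direction in every alternative fit, but their number moved. It was 21 at an adjusted p under 0.05, 2 with a fold minimum of 1.5, 5 with GC content bins, 5 when WT and CK were fitted alone, 12 with DESeq2, 8 with total counts and with loess offsets, 13 with presence of Y signal as a covariate (added after seeing the data), and 0 with summed Y signal as a covariate. The cause was not tested. Summed Y signal did not follow presence of Y signal. It was 1008.52 CPM in C replicate 4, without proximal Y signal, and 277.67 in WT replicate 1, with it. It ran from 245.88 to 567.44 CPM in WT and 552.71 to 1008.52 in C. K mice had 369.97 to 466.82 and CK mice 425.48 to 722.55. With this covariate, calls over all peaks went from 4478 to 715 in CK against WT. In C against WT they went from 105 to 0. Leaving out 1 mouse at a time gave 0 to 13 of the 59 peaks in CK against WT. It gave 0 without WT replicate 4 (2114 of all peaks) and 13 without CK replicate 5 (4589). It gave 4 without CK replicate 1 (3166) or 2 (3527). For K against WT it gave 0 to 1 (1 without WT replicate 1, with 821 of all peaks). In CK against C, 1 peak was called at an adjusted p under 0.05 (4377 of all peaks) and with loess offsets (1162). The same number was called with those genotypes fitted alone (871) and with DESeq2 (2104 of 65478).

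Replicate numbers were not taken to pair the mice, since not every same-number correlation of deviations was over 0.1 (-0.093 to 0.224, median 0.1, against -0.243 to 0.274, median -0.0085, between other mice) and 6 of 16 mice correlated best with their own number. Without X and Y, same-number correlations ran from -0.017 to 0.186 (median 0.06) and those between other mice from -0.198 to 0.233 (median -0.022). With the replicate block 17 peaks were called in CK against WT (6607 of all peaks), 3 in CK against C (2571) and 1 in K against WT (2146). With the block and GC bins 14 were called in CK against WT (5691 of all peaks).

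With summed Y signal as a covariate, the log2 fold change against WT turned to 0.000598 for the peak 33.2 kb from Igha in K, 0.0247 and 0.0564 in C for the peaks at 22.7 and 0.38 kb, -0.0279 in C upstream of Ighe, -0.216 in C and -0.0893 in CK at 6.91 kb from Ighg2b, 0.602 in C, 0.0366 in K and 0.279 in CK at Ighg1, and 0.17 and 0.196 in C at 8.57 and 13.8 kb from Igkc. The peak 16.67 kb upstream of Igkc turned in K to -0.0104 with Y presence and to -0.0031 with WT and K fitted alone. Leaving out 1 mouse, ranges that crossed 0 were -0.0405 to 0.0281 (K, 33.2 kb from Igha), -0.192 to 0.0939 (K, 6.91 kb from Ighg2b), -0.406 to 0.076 (CK, Ighg1), -0.228 to 0.0141 (C, 22.86 kb from Iglc1), -0.0512 to 0.0604 (K, 16.67 kb from Igkc) and -0.167 to 0.0143 (C, 8.57 kb from Igkc). None of these was called. The Igha 3' flank sum moved to -0.285 in 25 kb windows, which hold fewer peaks. Counting precision limits the AGCT-rich peak before Ighm, the thinnest of the called peaks (44 to 138 fragments per mouse). It also limits peaks that were not called, such as the exon peaks of Ighg2c (9 to 63 fragments per mouse).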
